A study of Mus musculus with 27 samples.

Results

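The genes described here are 6 transcription factor genes of interferon signaling, Stat2, Stat3, Irf1, Irf5, Irf7 and Irf9. They were taken by gene symbol from a mouse RNA-seq table of 19069 genes. All 6 were in the table, and all 6 passed the low-value filter that 13297 genes passed (a value of at least 1 in at least 3 libraries). They were chosen with earlier results of these data known. The table holds 27 libraries of bone marrow-derived macrophages, 3 in each of 9 groups, from marrow of C57BL/6 mice (femur and tibia). The marrow cells received 5 Gy of FLASH protons, 5 Gy from a standard proton beam, or no irradiation. Cells of all 9 groups were then grown for 7 days with the macrophage growth factor CSF-1 (10 ng/ml) and kept for 2 further days in control medium (M0), in lipopolysaccharide at 100 ng/ml (LPS, M1) or in interleukin-4 at 20 ng/ml (IL-4, M2). FLASH irradiation gives its dose far faster than a standard beam does. The study compares the irradiation modes and the polarization states. Whether the replicates come from different cultures or mice is not stated in the labels. The p-values therefore measure only the spread between these libraries, which may be technical.

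LPS is sensed by TLR4, and one branch of that signal leads to interferon-beta, which acts back on the macrophage through the receptor chains IFNAR1 and IFNAR2. The receptor's Janus kinases phosphorylate STAT2, which joins IRF9 in ISGF3, a complex that binds the interferon-stimulated response element (ISRE). IRF7 is itself made in response to ISGF3 and widens interferon production, IRF5 acts below toll-like receptors, IRF1 is induced through gamma-activated sites (GAS) and by NF-kappaB, and STAT3 is the main factor below interleukin-6 and interleukin-10.

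The promoter windows of Stat2, Irf1 and Irf7 are shown because Stat2 and Irf7 had the highest fitted LPS responses of the 6 genes and Irf1 was the one called lower under LPS after either irradiation in all 27 libraries. Each window runs from 250 bases before to 50 after a RefSeq transcript start on mouse build GRCm38.p6, and is written 5′ to 3′ on the gene's strand. Capitals mark matches to 3 motifs searched on both strands: the ISRE core (GAAA, any 2 bases, GAAA), the GAS motif (TTC, any 3 bases, GAA) and the kappaB motif. Stat2 lies at chr10:128270248-128270547 on the plus strand, the shown Irf1 window at chr11:53769764-53770063 on the plus strand, and Irf7 at chr7:141266375-141266674 on the minus strand.
Stat2: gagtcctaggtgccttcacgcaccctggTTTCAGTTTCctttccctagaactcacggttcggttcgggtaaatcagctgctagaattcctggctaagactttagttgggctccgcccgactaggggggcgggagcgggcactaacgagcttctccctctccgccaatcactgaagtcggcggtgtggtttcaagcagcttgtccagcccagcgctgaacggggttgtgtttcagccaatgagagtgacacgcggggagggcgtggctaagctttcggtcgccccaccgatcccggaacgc
Irf1: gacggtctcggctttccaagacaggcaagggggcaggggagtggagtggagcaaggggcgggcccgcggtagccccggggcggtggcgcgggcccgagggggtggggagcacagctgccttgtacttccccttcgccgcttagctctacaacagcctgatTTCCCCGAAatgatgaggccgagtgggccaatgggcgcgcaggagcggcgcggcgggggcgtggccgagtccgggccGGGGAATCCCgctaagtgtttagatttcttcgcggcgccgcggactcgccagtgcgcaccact
Irf7: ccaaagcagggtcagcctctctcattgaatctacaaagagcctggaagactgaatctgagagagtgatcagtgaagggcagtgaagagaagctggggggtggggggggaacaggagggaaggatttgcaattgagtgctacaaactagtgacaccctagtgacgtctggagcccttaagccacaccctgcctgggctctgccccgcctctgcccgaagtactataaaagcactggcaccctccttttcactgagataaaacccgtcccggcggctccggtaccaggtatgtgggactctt
The Stat2 window holds 1 ISRE core match, TTTCAGTTTC read on the minus strand, whose first base lies at -222 from the start site. The Irf1 window holds 1 GAS match, TTCCCCGAA at -90, and 1 kappaB match, GGGGAATCCC at -13, which reads on both strands. The windows of Stat3, Irf5, Irf7 and Irf9 and the other Irf1 window hold none of the 3 letter patterns. Of 32851 windows of this length in 27025 genes, 3.44% hold the ISRE core, 8.3% the GAS motif and 8.46% the kappaB motif. A match is a description of the letters and does not show binding.

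Levels below are the deposited values, CPM (reads of a gene per fixed total of reads) scaled by the authors. They are not divided by gene length, so they are compared between libraries and never between genes. Where groups are said to lie apart or not to overlap, the share of all tested genes that do the same was not counted. The table's value steps correspond to 20.68 to 25.84 M assigned reads per library. Of the 8 macrophage markers listed, 7 were in the table, and their summed level was between 5908 and 24550 CPM in every library. Response axes for LPS and for IL-4 were each built from 200 genes that include none of the 6, with 0 at the average of non-irradiated M0 and 1 at that of non-irradiated LPS or IL-4. Against these axes 22 libraries followed their labels and 5 did not, all of them replicate 1 of an irradiated group. The axes were set from the 9 non-irradiated libraries, so the place of those 9 is no check of their own labels. For the library labelled FLASH M0 replicate 1 the IL-4 axis read 0.751. For the one labelled standard LPS replicate 1 it read 0.795, with 0.00844 for LPS. On the LPS axis, the 2 libraries labelled FLASH and standard IL-4 replicate 1 read 0.868 and 0.865, and the one labelled FLASH LPS replicate 1 read -0.0350. They were kept under their labels in the fit of all 27 libraries, and the calls of the 6 genes are also given from the 22 that follow their labels.

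**Figure D1:**
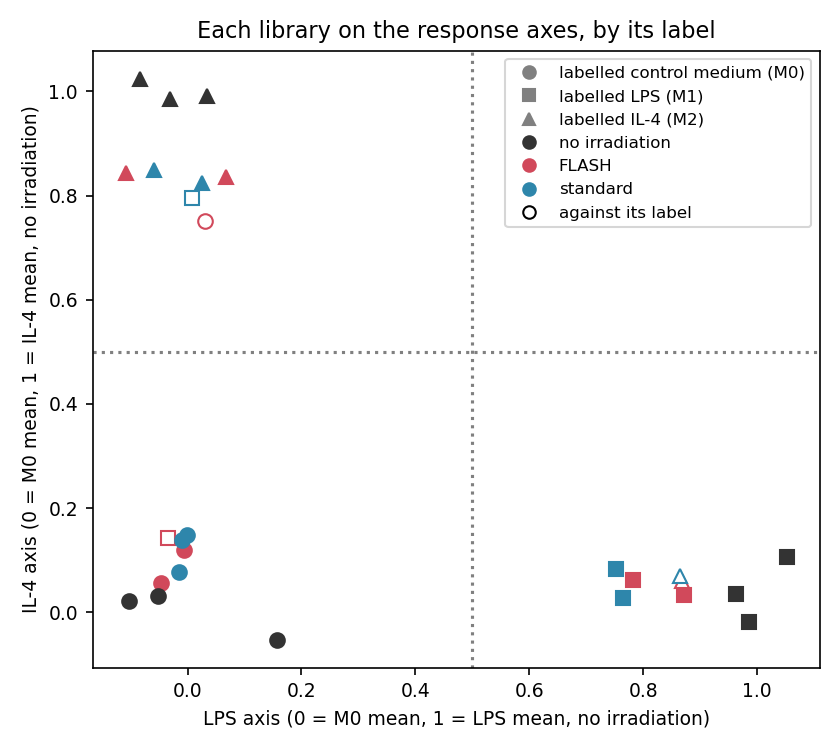
Position of the 27 libraries by LPS response (horizontal axis) and IL-4 response (vertical axis), scaled so that non-irradiated M0 averages 0 and the non-irradiated LPS or IL-4 group averages 1. Shape gives the labelled state, color the irradiation, and the 5 open symbols are libraries against their labels. The 7 LPS libraries that follow their labels lie between 0.752 and 1.05 on the LPS axis and the 7 IL-4 libraries between 0.824 and 1.02 on the IL-4 axis.

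In macrophages without irradiation, LPS raised the ISGF3 subunits Stat2 and Irf9 and the ISGF3-induced Irf7 together. Stat2 was at 50.4, 141 and 62.5 CPM in M0 and at 544, 579 and 545 CPM in LPS. Irf9, the DNA-binding subunit of ISGF3, was at 47.5, 79.7 and 54.5 CPM in M0 and at 138, 127 and 117 CPM in LPS. Irf7, the interferon-amplifying factor, was at 36.7, 309 and 42.7 CPM in M0 and at 2498, 2438 and 2697 CPM in LPS. For each of these 3 genes every LPS library lay above every M0 library. Replicate 2 was the highest M0 library in all 3.

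On the log2(CPM + 0.5) scale, where limma's fit was made and the change of low genes is understated, Stat2 rose by 2.85 (SE 0.625, adjusted p = 0.00606). Irf7 rose by 5.00 (SE 1.51, adjusted p = 0.0281) and Irf9 by 1.10 (SE 0.324, adjusted p = 0.025). In the 22 libraries the adjusted p-values were 2.66e-06 for Stat2, 3.1e-06 for Irf7 and 0.000107 for Irf9. The libraries left out are all irradiated, so the changes were the same by construction. Only the shared estimate of the spread differed, with an SE of 0.561 for Irf7. These calls depend on which libraries were left out and are no separate evidence, in this and every other comparison of non-irradiated groups. In the fit of all 27, the calls of Irf7 and Irf9 were lost when any single non-irradiated LPS library, M0 replicate 1 or M0 replicate 3 was left out. The log2 change then stayed between 4.46 and 5.04 for Irf7, with adjusted p from 0.0633 to 0.106, and between 0.94 and 1.16 for Irf9, with adjusted p from 0.0512 to 0.107. Without M0 replicate 2, the highest M0 library, the log2 change was 5.99 for Irf7, 3.30 for Stat2 and 1.31 for Irf9, and all 3 were called.

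Irf1, Irf5 and Stat3 also stood higher in LPS than in M0. Irf1, the factor of the interferon-gamma and NF-kappaB response, was at 58.6, 102 and 137 CPM in M0 and at 390, 426 and 423 CPM in LPS, a log2 rise of 2.13 (SE 0.537, adjusted p = 0.0122). Irf5 was at 205, 180 and 251 CPM in M0 and at 290, 307 and 298 CPM in LPS, a log2 rise of 0.50 (SE 0.145, adjusted p = 0.0219). Stat3 was at 111, 131 and 158 CPM in M0 and at 231, 248 and 202 CPM in LPS. The groups did not overlap for any of the 3 genes. For Stat3 the log2 difference was 0.77 (SE 0.302, adjusted p = 0.08), which missed the threshold of 0.05. It was called in the 22 libraries (adjusted p = 0.000425), as were Irf1 (7.94e-05) and Irf5 (0.00282).

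The call of Irf1 was lost without M0 replicate 1 (log2 1.80, adjusted p = 0.0658). That of Irf5 was lost without M0 replicate 1 (adjusted p = 0.0728), M0 replicate 2 (0.0917), LPS replicate 2 (0.0769) or LPS replicate 3 (0.0568), at log2 changes of 0.39 to 0.50. Stat3 was called when the library labelled standard LPS replicate 1 (0.0418) or standard IL-4 replicate 1 (0.0478) was left out. Of the 6 genes 5 were called higher in all 27 libraries, where 9.87% of tested genes were called higher, and 6 in the 22 libraries, where 18% were. Markers of other cells moved between the same groups. The sum of 8 neutrophil markers was 516 to 901 CPM in M0 and 111 to 315 CPM in LPS, with 1 called lower in all 27 libraries and 4 in the 22. Over all tested genes 7.54% and 16.9% were called lower in these fits. The sum of 6 T and NK markers was 1.96 to 5.66 CPM in M0 and 5.96 to 10.8 CPM in LPS, with 0 and 1 of the 2 tested called higher in the 2 fits. Their part in the LPS differences was not tested.

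**Figure D2:**
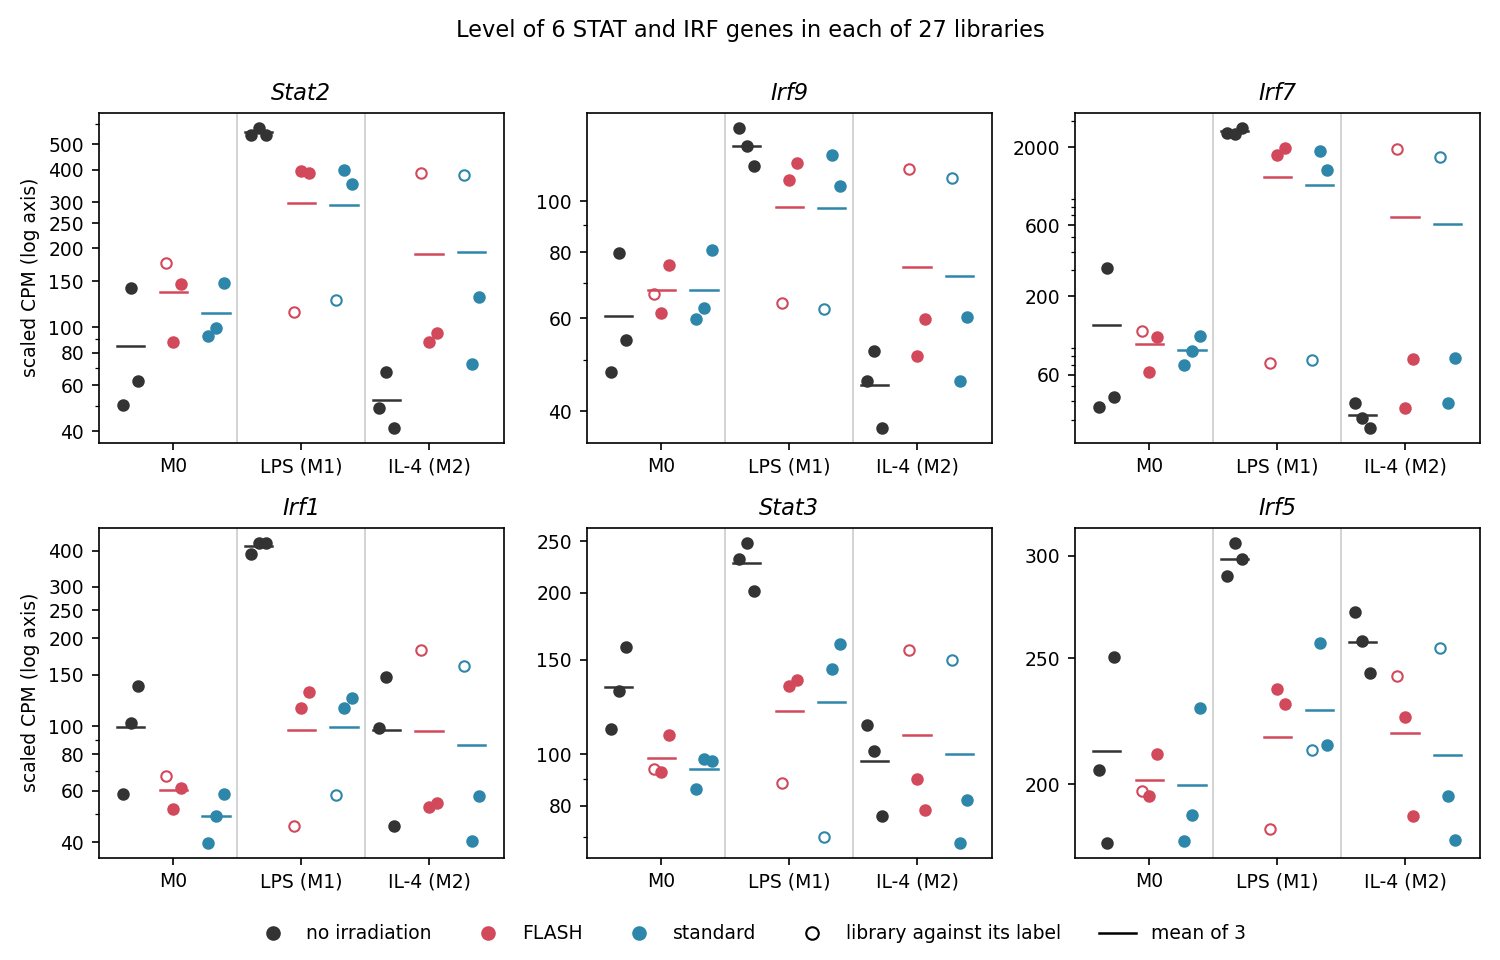
CPM of the 6 genes in each of 27 libraries (log axis), grouped by labelled state and colored by irradiation. Points are libraries, lines are means of 3, and open points are the 5 libraries against their labels. The non-irradiated LPS libraries are the highest group for every gene, and the irradiated LPS libraries that follow their labels lie below them without overlap for every gene except Irf9. The share of all tested genes that lie apart in the same way was not counted.

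Among the other genes of the pathway, the targets of ISGF3 moved with Stat2, Irf9 and Irf7. All 20 listed ISGF3 targets rose with LPS without irradiation, with a median log2 change of 4.10 against -0.01 over all tested genes. Oasl1, an oligoadenylate synthetase-like inhibitor of Irf7 translation, rose by 5.59 and the antiviral Rsad2 by 4.99. Isg15, a ubiquitin-like modifier, rose by 4.87 from 8.86, 59.5 and 14.3 CPM to 507, 739 and 547 CPM.

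Of 2 interferon genes above the filter, both rose, Ifnb1 by 2.26 and Ifng by 2.26. Both were low, with Ifnb1 between 1.35 and 3.44 CPM and Ifng between 2.56 and 3.82 CPM in the LPS libraries. Of 5 other IRF genes only Irf2 rose (0.68). Of the 4 other STAT genes considered 0 were called in all 27 libraries, and Stat5b was called higher in the 22 (0.29, adjusted p = 0.0224). Of 10 receptor genes 1 was called, Ifnar2 (0.70), and of 3 Janus kinase genes 1, Jak2 (1.40). The receptor count is near the 9.87% of all tested genes called higher in all 27 libraries. In the 22 libraries 18% of tested genes were called higher.

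Of 18 listed targets of IRF1 and GAS, 9 rose and 1 fell, with a median of 2.36. The chemokine genes Cxcl11 and Cxcl10 rose by 5.34 and 5.12, and Ciita, the master regulator of MHC class II, fell by 2.50. Of 12 STAT3 targets 6 rose and none fell, with a median of 1.25, among them Saa3 (6.83), Socs3 (3.90) and the kinase gene Pim1 (2.05). Of 13 inhibitors 4 rose, including Usp18 (4.54) and Socs1 (3.94), and 1 fell, Irf2bp1 (-0.53). Of 20 sensors and adaptors 6 rose, including the double-stranded RNA sensors Ifih1 (2.62) and Tlr3 (2.72), and 1 fell, Irak1 (-0.36). Some genes stand in more than 1 of these lists. Over all tested genes 9.87% were called higher and 7.54% lower in all 27 libraries, and the single genes that fell are near or below that share. Counts in the 22 libraries were larger or equal, with 14 of 18 IRF1 and GAS targets, 9 of 12 STAT3 targets and 12 of 20 sensors called higher. There 18% of tested genes were called higher.

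IL-4 without irradiation moved none of the 6 genes past the threshold in all 27 libraries by limma, with 9.83% of tested genes called. At an unadjusted p under 0.05 the count was also 0 of 6, against 3389 of 13297 tested genes. In the 22 libraries 4 of 6 had an unadjusted p under 0.05, against 4889 of 13181 tested genes. Irf7 was at 38.9, 30.8 and 26.4 CPM in IL-4, and 2 of these 3 values lay below every M0 library. Stat2 was at 49.3, 67.5 and 41.3 CPM and Irf9 at 45.6, 52.0 and 37.3 CPM, both overlapping M0. Irf1 was at 98.8, 147 and 45.5 CPM, spread as widely as in M0. Stat3, at 114, 101 and 76.7 CPM, had a log2 difference of -0.46 from M0 (adjusted p = 0.36), which was called in the 22 libraries (adjusted p = 0.0254, 12.9% of genes called lower). That call was lost when non-irradiated M0 replicate 2 was left out as well (log2 -0.47, adjusted p = 0.0559, 20.4% of genes called). Irf5, at 271, 258 and 244 CPM, had a difference of 0.29 (adjusted p = 0.211, and 0.079 in the 22 libraries).

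Set directly against IL-4, LPS gave higher levels of 5 of the 6 genes, with 15.9% of genes called higher. The differences were 6.30 for Irf7, 3.42 for Stat2, 2.24 for Irf1, 1.50 for Irf9 and 1.23 for Stat3 (adjusted p from 0.000856 to 0.00549). The same 5 genes were called in the 22 libraries, where 21.5% of genes were called higher. Irf5 differed by 0.21 (95% interval -0.09 to 0.51, adjusted p = 0.286). The LPS and the IL-4 comparisons with M0 share the 3 non-irradiated M0 libraries.

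Replicate 2 of non-irradiated M0 was higher than replicates 1 and 3 in many genes of the pathway. It had the highest value of the 3 in 20 of 20 ISGF3 targets, among them Ifit3 at 190 CPM against 19.7 and 33.7 CPM. It was also the highest in 16 of 20 sensors and adaptors, 8 of 10 receptors, 8 of 13 inhibitors and 7 of 12 STAT3 targets. Of the 2 interferon genes it was the highest in 0. The share of all tested genes that were highest in this library was not counted. Of the 6 genes it was the highest in Stat2, Irf7 and Irf9, and replicate 3 was the highest in Stat3, Irf1 and Irf5. This library is a control in every comparison of irradiated with non-irradiated M0. An alternative chosen after its values were seen leaves it out together with the 5 libraries above. There, Stat2 was called higher in standard-irradiated than in non-irradiated M0, by 0.98 (adjusted p = 0.0363, 2.6% of genes called higher).

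After irradiation, Irf1 and Stat3 were called lower under LPS than without irradiation in the libraries that follow their labels. Irf7, Stat2 and Irf5 also lay below the non-irradiated LPS libraries there but were not called, and Irf9 overlapped them. Set against M0 instead, Irf7, Stat2 and Irf9 were called higher with LPS after both modes in those libraries. Irf1 and Stat3 were called higher with LPS after standard irradiation. The irradiated LPS libraries that follow their labels are replicates 2 and 3 of each mode. Irf1 was at 115 and 131 CPM after FLASH and at 115 and 125 CPM after standard irradiation, below all 3 non-irradiated LPS libraries (390 to 426 CPM). The libraries labelled LPS replicate 1 had 45.4 CPM (FLASH) and 58.3 CPM (standard). The libraries labelled IL-4 replicate 1, which lay on the LPS axis, had 182 and 161 CPM, above the other irradiated libraries and below the non-irradiated LPS libraries.

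In all 27 libraries Irf1 fell by 2.22 on the log2 scale under LPS after FLASH (SE 0.537, adjusted p = 0.0297, 1.8% of genes called lower). It fell by 2.12 after standard irradiation (SE 0.537, adjusted p = 0.0376, 1.62% called lower). These calls did not hold without single libraries. After FLASH the call was lost without any 1 of the 3 non-irradiated LPS libraries (adjusted p 0.0958 to 0.1) or without FLASH LPS replicate 1 (log2 -1.74, adjusted p = 0.177). After standard irradiation it was lost without any 1 of the 6 libraries compared (adjusted p 0.057 to 0.197, log2 changes from -2.32 to -1.78). It was also lost when only the compared groups entered the fit. Without the 5 libraries against their labels, Irf1 fell by 1.74 after FLASH (95% interval -2.52 to -0.97, adjusted p = 0.011) and by 1.78 after standard irradiation (-2.55 to -0.999, adjusted p = 0.0102).

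Stat3, the interleukin-10 and interleukin-6 factor, was at 134 and 138 CPM after FLASH and at 144 and 161 CPM after standard irradiation, against 202 to 248 CPM without irradiation. The libraries labelled LPS replicate 1 had 88.5 and 69.9 CPM. The log2 differences in all 27 libraries were -0.94 for both modes (adjusted p = 0.111 and 0.102). Stat3 was called lower in the 22 libraries after FLASH (-0.73, adjusted p = 0.0134) and after standard irradiation (-0.57, adjusted p = 0.0474). With replicates 2 and 3 only it was called after FLASH (adjusted p = 0.0328) and not after standard irradiation. The percentages and count that follow are those of the 22 libraries. There 3.06% and 3.35% of genes were called lower, and 2 of the 6 genes were. Both modes were compared with the same 3 non-irradiated LPS libraries.

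Irf7 was at 1765 and 1967 CPM after FLASH and LPS, and at 1888 and 1399 CPM after standard irradiation and LPS. These 4 values lay below the non-irradiated LPS libraries (2438 to 2697 CPM) and above every library labelled irradiated M0 (62.7 to 117 CPM). The libraries labelled LPS replicate 1 had 72.3 and 74.9 CPM, within the M0 range, and the libraries labelled IL-4 replicate 1 had 1943 and 1730 CPM. Stat2 was at 394, 389, 400 and 353 CPM in the same 4 LPS libraries, between the libraries labelled irradiated M0 (88.1 to 176 CPM) and non-irradiated LPS. Irf9 was at 109, 118, 122 and 107 CPM there, overlapping the non-irradiated LPS libraries. Irf5 was at 237, 231, 257 and 214 CPM, below the non-irradiated range of 290 to 307 CPM.

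None of these 4 genes passed the test of irradiated against non-irradiated LPS in either fit. The log2 difference of Irf7 in the 22 libraries was -0.45 after FLASH (95% interval -1.77 to 0.88) and -0.65 after standard irradiation (-1.97 to 0.68). That of Stat2 was -0.50 and -0.56, that of Irf9 -0.16 and -0.15, and that of Irf5 -0.35 (adjusted p = 0.147) and -0.34 (0.141).

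**Figure D3:**
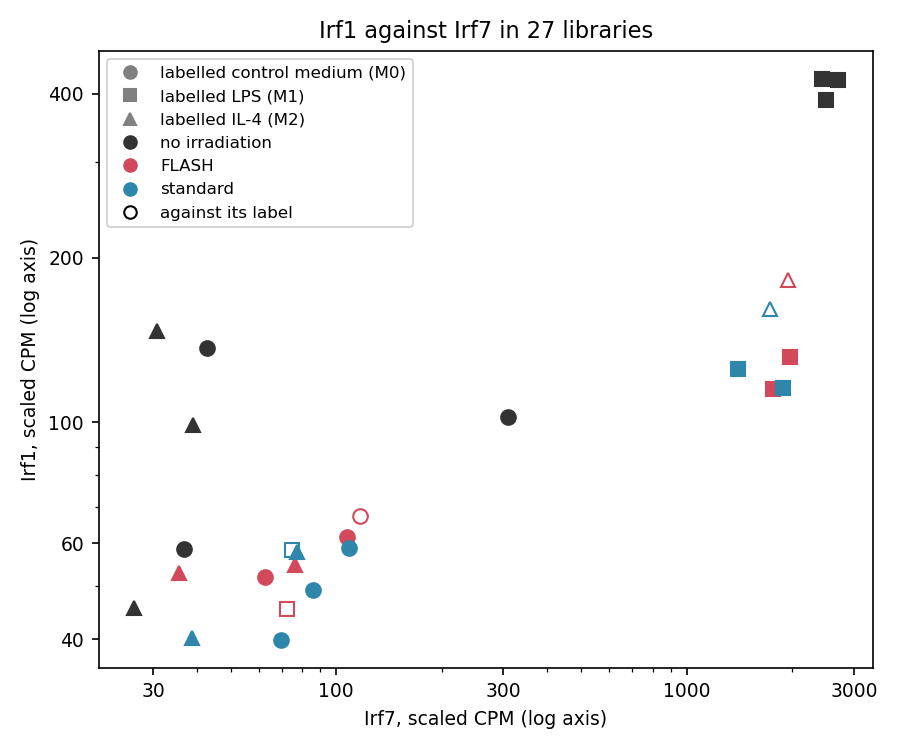
CPM of Irf1 (vertical) against Irf7 (horizontal) in 27 libraries, both on log axes. Shape gives the labelled state, color the irradiation, and open symbols the libraries against their labels. The 3 non-irradiated LPS libraries lie at 390 to 426 CPM of Irf1, and the 4 irradiated LPS libraries that follow their labels lie at 115 to 131 CPM of Irf1 with 1399 to 1967 CPM of Irf7.

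The LPS response within each irradiated arm depends on the 5 libraries. The 22 were kept by their place on the response axes. Irradiated LPS libraries short of 0.5 on the LPS axis, and irradiated M0 libraries past 0.5 on an axis, were left out beforehand. The calls in the 22 therefore depend on that choice and are no separate evidence of an LPS response. With all 27, limma called no gene in either arm. Of the 6 genes 0 had an unadjusted p under 0.05, against 1543 and 2070 of 13297 tested genes after FLASH and standard irradiation. Among the 22 libraries, 3 of the 6 genes were called higher with LPS after FLASH (11.9% of genes called higher). These were Irf7 by 4.49 (adjusted p = 0.000143), Stat2 by 1.78 (0.00263) and Irf9 by 0.73 (0.019). After standard irradiation 5 were called higher (12.1% of genes), Irf7 by 4.22, Stat2 by 1.75, Irf1 by 1.30, Irf9 by 0.76 and Stat3 by 0.70, with adjusted p from 0.000111 to 0.0164. Irf1 after FLASH had a difference of 1.11 (adjusted p = 0.0531). Irf5 was called in neither arm (0.20 and 0.24). IL-4 moved none of the 6 genes past the threshold within either irradiated arm, in all 27 libraries (0% and 0.474% of genes called after FLASH and standard irradiation) or in the 22 (12.1% and 14.4%). Irf7 differed by 0.91 and 1.002 in all 27 libraries (adjusted p = 0.911 and 0.814) and by -0.65 after both modes in the 22, and at an unadjusted p under 0.05 the count was 0 of 6 for each mode in either fit.

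The test of the difference between arms gave no call for any of the 6 genes. The LPS response of Irf1 in the 22 libraries differed from the non-irradiated one by -1.02 after FLASH (95% interval -2.12 to 0.08, adjusted p = 0.379) and by -0.84 after standard irradiation (-1.88 to 0.20, adjusted p = 0.469). That of Stat2 differed by -1.07 (-2.12 to -0.01, adjusted p = 0.328) and by -1.10 (-2.10 to -0.10, adjusted p = 0.311). That of Irf7 differed by -0.51 (-2.39 to 1.37) and -0.78 (-2.56 to 0.998). In all 27 libraries the 6 differences ran from -2.24 to -0.40 after FLASH and from -2.26 to -0.31 after standard irradiation, and none passed the threshold, with 0.12% and 0.0902% of genes called. At an unadjusted p under 0.05 the count was 1 of 6 after FLASH and 0 of 6 after standard irradiation. Over all tested genes it was 1308 and 1109 of 13297. In the 22 libraries it was 1 of 6 for each mode, against 1977 and 1857 of 13181 tested genes. At the adjusted threshold 0.387% of genes were called there in each mode. The change of the IL-4 response was called for none of the 6 genes by limma in either fit, where 0% to 0.0228% of genes were called, and the count at an unadjusted p under 0.05 was 0.

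**Figure D4:**
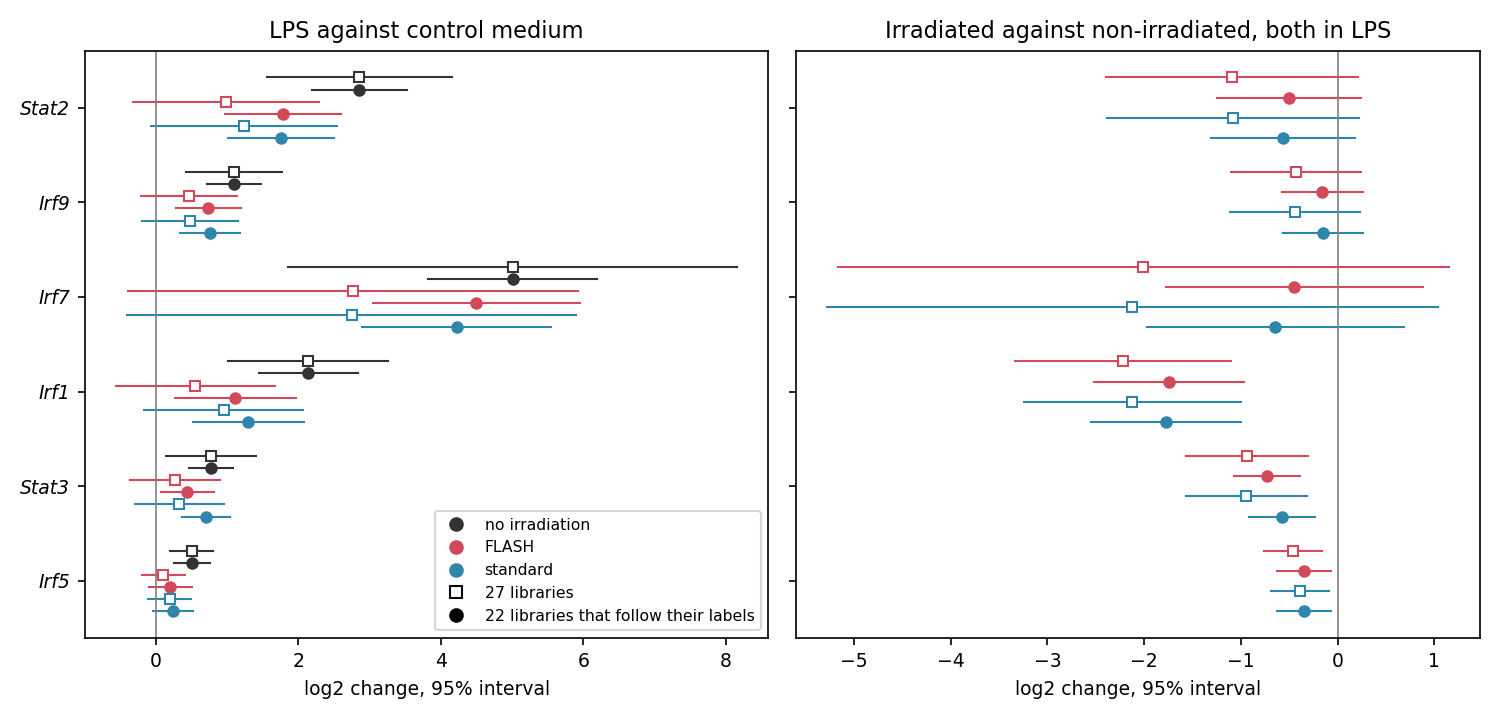
Log2 change with its 95% interval for the 6 genes, for LPS against M0 in each arm (left) and for irradiated against non-irradiated LPS (right). Open squares are the fit of all 27 libraries and filled circles that of the 22 that follow their labels, colored by irradiation. In the right panel the 22-library intervals of Irf1, Stat3 and Irf5 lie below 0 and those of Stat2, Irf9 and Irf7 include 0.

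Averaged over the 3 states with equal weight, Irf1, Stat3 and Irf5 were lower after irradiation. For Irf5 this mean joins unlike values. In all 27 libraries it differed by -0.06 and -0.08 in M0 after FLASH and standard irradiation, and by -0.46 and -0.39 under LPS. In all 27 libraries only Irf1 after standard irradiation was called, with a fall of 1.11 (adjusted p = 0.0297, 4.52% of genes called lower). After FLASH its difference was -0.99 (adjusted p = 0.0552), and none of the 6 genes was called by limma (7.72% of genes called). At an unadjusted p under 0.05, 3 of 6 passed after FLASH and 3 of 6 after standard irradiation. Of all 13297 tested genes, 2848 and 2958 did. Stat3 had differences of -0.42 and -0.49 and Irf5 of -0.25 and -0.26, with adjusted p from 0.0632 to 0.159. The call of Irf1 after standard irradiation was lost when any of 9 libraries was left out: non-irradiated M0 replicate 2 or 3, LPS replicate 2, or IL-4 replicate 1 or 2, or standard M0 replicate 1, LPS replicate 1, or IL-4 replicate 2 or 3. Its change was then between -1.10 and -0.97, with adjusted p from 0.0502 to 0.0693. Conversely, Irf1 after FLASH was called without any 1 of 7 libraries (adjusted p 0.0144 to 0.0491): FLASH LPS replicate 3 or IL-4 replicate 1, non-irradiated M0 replicate 1 or IL-4 replicate 3, or standard LPS replicate 1 or IL-4 replicate 1 or 2. Irf5 was called after FLASH without FLASH or standard IL-4 replicate 1 or non-irradiated M0 replicate 2 (0.0395 to 0.0472). After standard irradiation it was called without standard M0 replicate 3, LPS replicate 2 or IL-4 replicate 1, non-irradiated M0 replicate 2 or FLASH LPS replicate 1 (0.0186 to 0.0497). Stat3 was called after standard irradiation without standard IL-4 replicate 1 (0.0235).

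Without the 5 libraries against their labels, Irf1 fell by 1.05 and 1.19 after FLASH and standard irradiation, Stat3 by 0.44 and 0.47, and Irf5 by 0.24 and 0.29 (adjusted p from 0.000857 to 0.0451). There 7.03% and 9.89% of genes were called lower. Stat2, Irf9 and Irf7 were called in neither fit. Their differences in the 22 libraries were 0.29, 0.12 and 0.11 after FLASH and 0.29, 0.09 and 0.09 after standard irradiation. The mean of states joins unlike values for these genes, since Stat2 after FLASH differed by -0.50 under LPS and by 0.81 under IL-4 in that fit. Over the same mean, all 8 neutrophil markers were called lower after either mode in both fits, with median log2 changes of -3.32 and -3.61 in the 22 libraries. Of the 5 B lineage markers 5 were called lower after each mode there, of the 7 dendritic cell markers tested 4, and of the 4 stromal markers 0. Their part in the lower Irf1, Stat3 and Irf5 was not tested.

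State by state outside LPS, no gene of the 6 was called in all 27 libraries, where 2.11% and 2.02% of genes were called after FLASH and standard irradiation in M0, and 1.1% and 1.35% in IL-4. At an unadjusted p under 0.05 the count was 0 for both modes in M0, 1 for FLASH in IL-4 and 2 for standard irradiation in IL-4. Over all 13297 tested genes it was 1932 and 1920 in M0, and 1811 and 1813 in IL-4. In the 22 libraries it was 1 and 2 of 6 for FLASH and standard irradiation in M0, and 2 and 4 of 6 in IL-4. Over the 13181 genes tested there it was 2693 and 3197 in M0, and 2283 and 2359 in IL-4. In M0, Irf1 was at 51.9 and 61.6 CPM after FLASH, and at 39.9, 49.1 and 58.7 CPM after standard irradiation. Of these 5 values 3 lay below the lowest non-irradiated M0 library (58.6 CPM). Stat3 in M0 was at 92.6 and 108 CPM after FLASH and at 86.0, 97.9 and 97.1 CPM after standard irradiation, all below the non-irradiated 111 to 158 CPM. This was called in the 22 libraries for standard irradiation (-0.50, adjusted p = 0.0449, 4.1% of genes called lower) and not for FLASH (-0.40, adjusted p = 0.168, 5.32% of genes called). The call after standard irradiation was lost when non-irradiated M0 replicate 2 was left out as well (log2 -0.50, adjusted p = 0.0815) and when only replicates 2 and 3 were used. In M0 all 8 neutrophil markers were called lower after either mode in both fits. Over all libraries labelled M0 their sums were 516 to 901 CPM without irradiation, 16.6 to 92.1 CPM after FLASH and 6.90 to 25.5 CPM after standard irradiation. Their part in the M0 values of Irf1 and Stat3 was not tested.

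In IL-4, Stat2 was at 87.7 and 94.7 CPM after FLASH and at 72.5 and 130 CPM after standard irradiation, above the non-irradiated 41.3 to 67.5 CPM. The differences of 0.81 and 0.91 in the 22 libraries were not called (adjusted p = 0.236 and 0.181, 3.31% and 3.45% of genes called). Irf5 in IL-4 was at 225 and 189 CPM after FLASH and at 196 and 181 CPM after standard irradiation, below the non-irradiated 244 to 271 CPM (log2 -0.32 and -0.45 in that fit, adjusted p = 0.212 and 0.0724). The 2 libraries labelled IL-4 replicate 1 lay on the LPS axis and had 242 and 255 CPM of Irf5. Without the 6 libraries, Irf5 was called lower in IL-4 after standard irradiation (adjusted p = 0.0457, 2.11% of genes called lower). Of the 8 neutrophil markers, 1 and 4 were called lower in IL-4 after FLASH and standard irradiation in all 27 libraries, and 1 and 2 in the 22. Of the 5 B lineage markers it was 2 and 3, and 3 and 2 in the 22. Over all tested genes 0.662% and 0.797% were called lower in all 27 libraries, and 1.18% and 1.88% in the 22. None of the tested dendritic cell, T and NK or stromal markers was called in IL-4 in either fit. Macrophage markers went the other way, with 2 of 7 called higher after each mode in all 27 libraries, and 3 and 2 in the 22. Over all tested genes 0.436% and 0.557% were called higher in all 27 libraries, and 2.12% and 1.57% in the 22. Their median log2 change in the 22 libraries was 0.394 after FLASH and 0.318 after standard irradiation. The summed level of these markers was 5908 to 6857 CPM in non-irradiated IL-4. Lyz2 weighs heavily in such sums, with up to 20397 CPM in a single library of the table. In all libraries labelled irradiated IL-4, with the 2 on the LPS axis, the sum was 10970 to 18020 CPM (FLASH) and 11680 to 18510 CPM (standard). The part of these cell types in the Stat2 and Irf5 values was not tested.

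No difference between FLASH and standard irradiation was detected in any of the 6 genes. Over the mean of states limma called 0 of 13297 genes (0%), against 393 at an unadjusted p under 0.05, and of the 6 genes 0 had an unadjusted p under 0.05. Among the 22 libraries the FLASH minus standard difference was 0.13 for Irf1 (95% interval -0.34 to 0.61), 0.03 for Stat3 (-0.17 to 0.24) and 0.05 for Irf5 (-0.12 to 0.22). It was 0.00 for Stat2 (-0.46 to 0.46), 0.03 for Irf9 (-0.23 to 0.28) and 0.02 for Irf7 (-0.80 to 0.83). A difference of up to 0.83 in Irf7 is thus within its interval.

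Several other genes of the pathway were also lower in irradiated than in non-irradiated LPS. Irf2, which competes with Irf1 for its sites, was at 154 to 168 CPM in non-irradiated LPS and at 85.2 to 98.2 CPM in the 4 irradiated LPS libraries that follow their labels. It fell by 0.92 and 0.74 in all 27 libraries (adjusted p = 7.64e-05 and 0.00113) and by 0.81 and 0.84 in the 22. Irf8, the myeloid lineage factor, was at 333 to 397 CPM against 196 to 219 CPM and fell by 1.04 after standard irradiation in all 27 (adjusted p = 0.0295). After FLASH its difference was -0.70 (adjusted p = 0.167), and in the 22 libraries it fell by 0.85 in both. Stat5b fell by 0.51 and 0.46 in the 22 libraries (adjusted p = 0.00919 and 0.0167). Stat6, the IL-4 factor, differed by -0.11 and -0.21 and was not called.

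Ifng, a ligand that induces Irf1, was at 2.56, 3.82 and 3.33 CPM in non-irradiated LPS and at 0.121 to 0.484 CPM in the 4 irradiated LPS libraries. It was called lower in all 27 libraries, with log2 differences of -2.28 and -2.295 (adjusted p = 6.36e-05 and 6.29e-05). Of the other lists in the 22 libraries under LPS, 3 of 18 IRF1 and GAS targets were called lower after FLASH (median -0.83) and 3 after standard irradiation (median -0.90), against -0.007 and -0.005 over all tested genes. The chemokine gene Cxcl11 fell by 1.97 and 2.84 and the immunoproteasome gene Psmb10 by 0.78 and 0.90, with Ciita called after FLASH (-2.45) and Socs1 after standard irradiation (-1.82). Of 12 STAT3 targets 3 fell after each mode, Il4ra by 0.84 and 0.65, Pim1 by 0.69 and 0.74 and the survival gene Mcl1 by 0.54 and 0.49. Of 20 ISGF3 targets 0 were called by limma in either mode, with medians of -0.34 and -0.55. Among sensors Tlr9 fell by 1.88 and 1.75. Over all tested genes in that fit, 3.06% and 3.35% were called lower. In all 27 libraries 0 of 18 IRF1 and GAS targets and 1 of 12 STAT3 targets, Mcl1, were called under LPS in either mode.

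**Figure D5:**
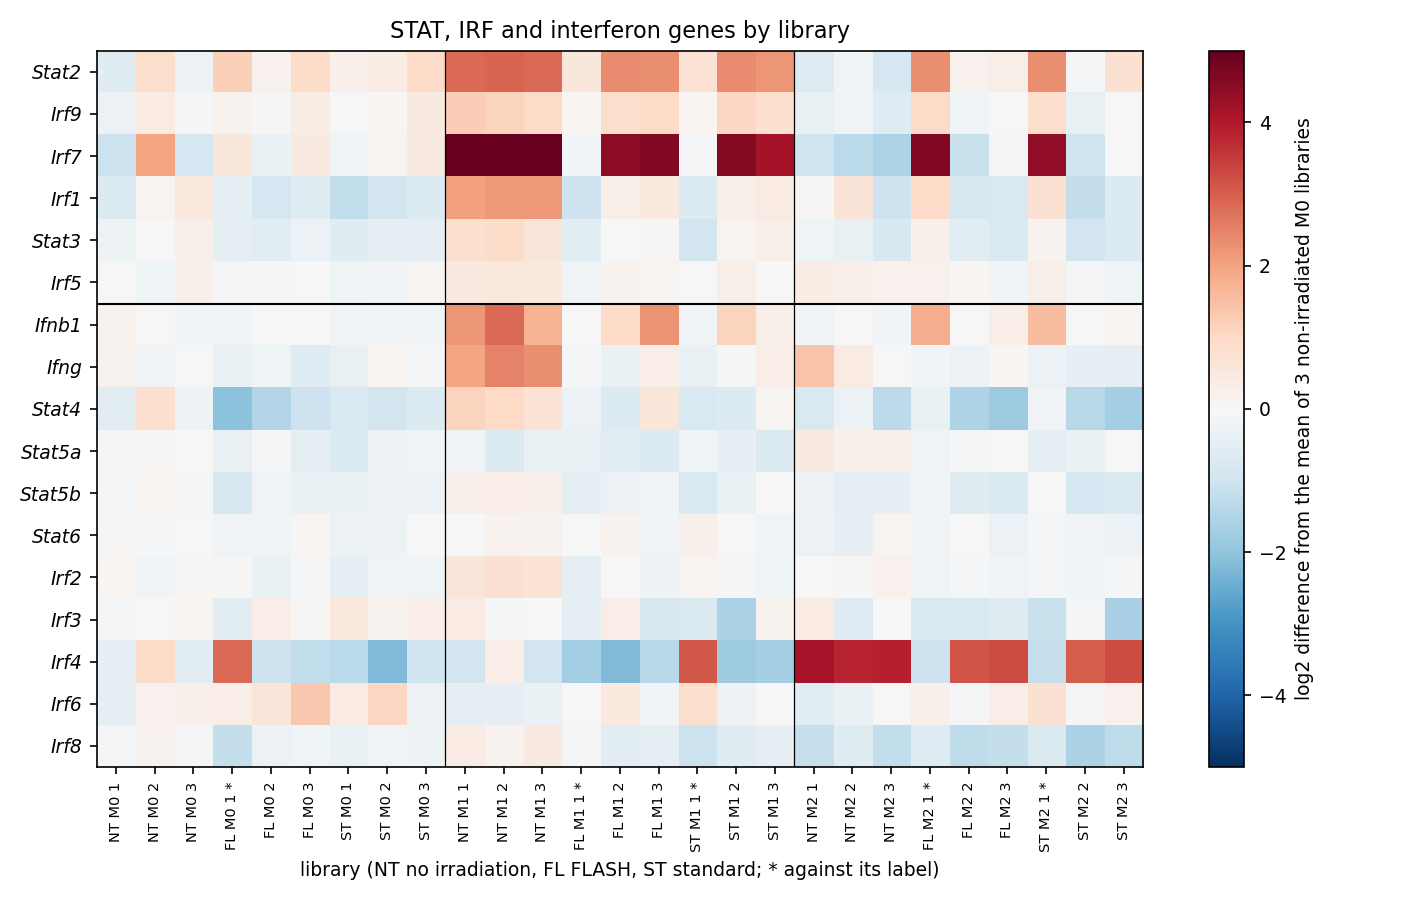
Log2 difference of each library from the average of non-irradiated M0 for the 6 genes (above the line) and for the tested interferon, other STAT and other IRF genes. Columns are libraries ordered by labelled state (M0, LPS, IL-4), and an asterisk marks a library against its label. Colors end at 5 in either direction. Irf7 and Stat2 are high in the LPS libraries that follow their labels in all 3 arms, and Irf2 and Ifng are above M0 in the 3 non-irradiated LPS libraries.

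Markers of several other marrow cell types moved with irradiation under LPS. The sums below cover all libraries labelled LPS, with the 2 irradiated replicate 1 libraries that are against their labels. The summed level of 8 neutrophil markers was 111 to 315 CPM in non-irradiated LPS, 17.1 to 53.9 CPM in FLASH LPS and 5.90 to 23.1 CPM in standard LPS. Of these 8 genes, 2 were called lower after FLASH and 6 after standard irradiation in all 27 libraries, and 3 and 6 in the 22. Over all tested genes, 1.8% and 1.62% were called lower in all 27 libraries, and 3.06% and 3.35% in the 22. The sum of 5 B lineage markers was 97.2 to 114, 7.99 to 16.1 and 8.75 to 23.5 CPM in the same order, with 4 of 5 called lower after each mode. Pax5 was at 0 in all 3 libraries labelled FLASH LPS. The sum of 6 T and NK markers, cells that make Ifng, was 5.96 to 10.8, 0.403 to 1.04 and 0.826 to 4.55 CPM, with 2 and 1 of the 2 tested called lower, and Ncr1 was at 0 in the 3 FLASH LPS libraries. The sum of 8 dendritic cell markers was 74.6 to 99.1, 42.4 to 59.6 and 42.0 to 60.5 CPM, with 2 of 7 tested called lower in each mode. The counts of these last 3 lists were the same in the 22 libraries. Of the 4 stromal markers 0 were called in either mode in either fit. None of the 7 macrophage markers was called in either mode in all 27 libraries, and 1 was called lower in each in the 22. The part of these cells in the lower Irf1, Stat3, Irf2 and Ifng was not tested. In bulk RNA, fewer cells of a type and less RNA per cell cannot be told apart.

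Ranked by group mean, non-irradiated LPS was the highest group for all 6 genes. Its libraries lay apart from those of the next group for every gene except Irf9. Below it nearly all neighbors overlapped, in a ranking that keeps the 5 libraries against their labels under those labels. The exception was Irf7 in standard-irradiated M0 (69.6 to 108 CPM) above non-irradiated IL-4 (26.4 to 38.9 CPM), the lowest group. Among libraries that follow their labels, irradiated LPS had 1399 to 1967 CPM of Irf7, above every M0 and IL-4 library (at most 309 CPM). Stat2 was at 353 to 400 CPM there, against at most 148 CPM in M0 and IL-4. Irf1, at 115 to 131 CPM, overlapped non-irradiated M0 (58.6 to 137 CPM) and IL-4 (45.5 to 147 CPM). Irf1 was lowest in standard-irradiated M0, at 39.9 to 58.7 CPM.

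Across the 27 libraries the 6 genes formed unequal pairs, given as a description since libraries share their group. On the log2 scale Pearson's r was 0.98 between Stat2 and Irf9 and 0.97 between Irf7 and each of them. It was 0.93 between Stat3 and Irf1 and 0.82 between Irf1 and Irf5, and lowest, at 0.45, between Irf5 and Stat2 or Irf9. The genes whose profile was most like each of the 6 over the 27 libraries were Znfx1 (r = 0.993), Mnda and Ifi204 for Stat2, Ly6e (0.988), Ifit3 and Trim30a for Irf9, and Slfn2 (0.992), Pydc4 and Slfn1 for Irf7. They were Tapbpl (0.952), Psme1 and Iigp1 for Irf1, and Fam26f (0.952), Apobec3 and Il4ra for Stat3. For Irf5 the nearest were Utp14a (0.868), Rbm42 and Eng, at lower r than for the other 5.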

How the data were processed

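RNA of 27 mouse macrophage libraries was sequenced. Per the submitters' processing notes, the authors used kallisto 0.46.1 and edgeR 3.36.0 in R 4.0.5, and the notes list GRCh38, a human build, for samples from mice. Only gene symbols were therefore used from the table. The order of steps and the annotation are not given in the sources used here. The deposited values are a signal per gene and library, scaled CPM on a linear scale, with column sums from 929338 to 1072650. The 1 entry of 19070 without a symbol (at most 0.00799% of a library) was left out.

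Groups came from the labels. The value steps gave 96.5% to 98.2% whole reads within 0.01 read, so no count test was used. Values were put on the log2(value + 0.5) scale, and genes with at least 1 in at least 3 libraries were tested. One model with 9 group means was fitted with limma 3.58.1 (R 4.3.3, statmod 1.5.0), with trend and robust moderation, for 20 comparisons. P-values were adjusted over all tested genes by the Benjamini-Hochberg method, and genes with an adjusted p under 0.05 were called. A library counted as against its label when it passed 0.5 on the axis of another treatment or stayed under 0.5 on that of its own. The code was tested on simulated data.

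The members and lists were chosen with earlier results of these data known. Some genes of the lists are not reported here and were left out of the lists' counts and sums. The named genes of a list are up to 3 called per direction with the largest change, or the one with the smallest p, and the 3 genes most correlated with each member. Promoter windows came from RefSeq (GRCm38.p6), where all 6 genes matched. Alternatives were pseudocounts of 0.1 and 2, no filter and a minimum of 5, median-of-ratios scaling, no trend, only the compared groups, replicates 2 and 3 only, a replicate block, and leaving out libraries singly or the 5 or 6 named.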

Additional observations from a re-analysis of the deposited data

How the results depend on the processing

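Calls of the 6 genes depended most on the libraries against their labels. Without those 5, the number called was 1 (Stat3) for IL-4 without irradiation, 3 for FLASH and 3 for standard irradiation over the mean of states, 1 (Stat3) for standard irradiation in M0, 2 for either mode under LPS, and 3 and 5 for the LPS response after FLASH and standard irradiation. Without those 5 and non-irradiated M0 replicate 2 it was 0 for IL-4 (Stat3, adjusted p = 0.0559), 3 and 3 for the mean of states, 1 for standard irradiation in M0 (Stat2, with Stat3 at 0.0815), 2 for either mode under LPS, 1 (Irf5) for standard irradiation in IL-4, and 3 and 5 for the LPS responses. With replicates 2 and 3 only it was 1 for IL-4, 2 and 2 for the mean of states, 2 for FLASH under LPS, and 3 and 4 for the LPS responses. With only the compared groups it was 0 for either mode under LPS. Leaving out single libraries gave 1 to 6 for LPS without irradiation, 0 to 2 for FLASH and 0 to 3 for standard irradiation over the mean of states, and 0 to 1 for either mode under LPS.

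The replicate number stands for a tag in the titles that all 9 groups share and whose meaning the labels do not give. All 5 libraries against their labels carry number 1. By the correlation of same-numbered deviations the numbers did not pair the libraries: 2 of 36 pairs of groups had every correlation over 0.1, the range was -0.85 to 0.78, and 0 of 27 libraries correlated best with their own number. Among the 4 groups with no library against its label it was 0 of 6 pairs, from -0.20 to 0.10. With the replicate block the number called was 0, in place of 1, for standard irradiation over the mean of states (Irf1, adjusted p = 0.0521) and for FLASH (0.0592) and standard irradiation (0.0718) under LPS, and every other count was the same.

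With replicates 2 and 3 only, uncalled values changed sign for Irf7 in FLASH over the mean of states (-0.0295), for Stat2 (-0.0436) and Irf7 (-0.0355) in FLASH against standard, for Irf7 in the changed LPS response after FLASH (0.0231) and for Stat3 in that after standard irradiation (0.00755). Irf7 in IL-4 against M0 turned from above to below 0 within the irradiated arms without the 5 or the 6 libraries (-0.6523 after FLASH, -0.6544 after standard irradiation) and with replicates 2 and 3 only (-0.6523 and -0.8109). Leaving out single libraries, uncalled log2 values that changed sign ran from -0.8224 to 2.052 and from -0.6544 to 2.075 for Irf7 in IL-4 after FLASH and standard irradiation, from -0.48 to 0.36 for Irf1 in IL-4 without irradiation, from -0.36 to 0.74 for Irf7 in FLASH over the mean of states, and from -0.40 to 0.64 for Irf7 and -0.00636 to 0.208 for Irf9 in standard irradiation over that mean. In FLASH against standard they ran from -0.17 to 0.28 for Stat2, -0.0556 to 0.179 for Stat3, -0.0730 to 0.313 for Irf1, -0.0297 to 0.0522 for Irf5, -0.506 to 0.625 for Irf7 and -0.0894 to 0.146 for Irf9. Of the single-gene values under settings that leave out no single library, which cover all 6 genes in 12 comparisons and 10 further values given above, 836 kept direction and call, 50 gained a call, 5 lost one and 11 changed sign. The cause of these changes was not tested. The planned count test in edgeR was not run, since whole reads could not be recovered for all values. The share of depth in these limits was not tested.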

Other observations

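Some inhibitor and receptor genes of the pathway were called in IL-4 without irradiation. In all 27 libraries limma called 4 of 13 inhibitors higher and none lower (list median -0.232, with 4.93% of all tested genes called higher), with the cytokine-inducible feedback genes Cish (log2 4.50, adjusted p = 0.0172), Socs2 (3.74, 0.0273) and Socs1 (3.72, 0.00516) at the largest changes. Socs1 was at 1.34, 3.54 and 0.609 CPM in M0 and at 30.6, 18.4 and 31.8 CPM in IL-4. Of 10 receptor genes 3 fell, Il10ra by 1.39, Il6ra by 0.99 and Ifngr1 by 0.68 (list median -0.444, with 4.90% of all tested genes called lower). In the 22 libraries that follow their labels 4 inhibitors were called higher and 3 lower, and 1 receptor gene higher and 6 lower, where 13.3% of genes were called higher and 12.9% lower. Irf8 fell by 0.98 (adjusted p = 0.0183).

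Irf4, a factor of IL-4-polarized macrophages, was at 72.6 to 89.7 CPM in non-irradiated IL-4 and at 3.13 to 9.46 CPM in non-irradiated M0. The difference of 3.92 was not called in all 27 libraries (adjusted p = 0.0658) and was called in the 22 that follow their labels (adjusted p = 1.71e-06). In the 4 irradiated IL-4 libraries that follow their labels Irf4 was at 42.8 to 49.95 CPM, below all 3 non-irradiated ones. Over the mean of states in the 22 libraries it fell by 1.04 after FLASH (adjusted p = 0.0102) and by 1.17 after standard irradiation (adjusted p = 0.00325).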
